A study of Mus musculus with 6 samples.

Results

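The genes described here are the enzymes of cholesterol and fatty acid synthesis together with the genes that control these pathways and export sterol. They were taken as a list of 34 gene symbols, by name and not by a threshold on measured values. All 34 were found among the 24972 gene symbols of the expression table, and all 34 passed the filter on low values, which left 14456 genes for testing. By role they comprise 7 enzymes that lead from acetoacetyl-CoA to squalene, 10 enzymes that turn squalene into cholesterol, 6 genes of sterol sensing and transfer, 5 genes of the liver X receptor (LXR) system, and 6 fatty acid enzymes.

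RNA-Seq was performed on isolated lung endothelial cells (iLECs) of mice at P7, with 3 control and 3 *Atp6ap2* iECKO libraries, to ask how endothelial loss of ATP6AP2 alters the transcriptome. *Atp6ap2* encodes the (pro)renin receptor, an accessory protein of the vacuolar proton pump that acidifies endosomes and lysosomes. Controls were labelled *Atp6ap2* fl/Y without Cre, and *Atp6ap2* iECKO samples *Atp6ap2* fl/Y with *Cdh5*-CreERT2, a tamoxifen-inducible Cre driven by the VE-cadherin promoter in endothelial cells. Tamoxifen (100 μg) was given to the pups at P1, P2 and P3. Both genotypes thus carried the floxed allele and differed in the Cre transgene. The cells were captured from digested lung with beads carrying an antibody against CD31. The labels give the strain as C57BL/6, whereas the study's methods describe a mixed CD1 and C57BL/6 background.

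Cholesterol is built from acetyl-CoA through the mevalonate pathway, whose product squalene is cyclised and then trimmed step by step to cholesterol. When sterol in the endoplasmic reticulum is low, SCAP escorts the SREBP transcription factors to the Golgi, where they are cut and released to switch on genes of sterol and fatty acid synthesis, and when sterol is plentiful INSIG proteins hold SCAP back. Oxidised sterols bind the LXR nuclear receptors, which switch on genes of cholesterol export and of the ubiquitin ligase that removes lipoprotein receptors. Endothelial cells also obtain cholesterol from lipoproteins broken down in acidic lysosomes.

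Windows at annotated starts of the 3 members that passed the test (*Scap*, *Acaca* and *Abca1*) are shown with that of *Hmgcs1*. The *Hmgcs1* window was added after the motif search, as *Hmgcs1* was the only matched member holding the sterol regulatory element core searched for. Sequences are from RefSeq on GRCm38.p6, 300 bases each, from 250 bases before to 50 bases after the annotated start, written 5′ to 3′ on the strand of the gene. Capitals mark TCACNCCAC (sterol regulatory element core), CCAAT (bound by NF-Y) and GGGCGG (bound by Sp1) on either strand.
Scap (chr9:110333038-110333337, plus strand): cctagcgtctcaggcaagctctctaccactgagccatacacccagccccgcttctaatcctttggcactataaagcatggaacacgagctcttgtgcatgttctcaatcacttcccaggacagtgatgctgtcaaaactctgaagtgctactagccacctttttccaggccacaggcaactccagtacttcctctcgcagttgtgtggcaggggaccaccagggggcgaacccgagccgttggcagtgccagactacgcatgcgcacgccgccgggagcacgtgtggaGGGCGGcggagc
Acaca (chr11:84195188-84195487, plus strand): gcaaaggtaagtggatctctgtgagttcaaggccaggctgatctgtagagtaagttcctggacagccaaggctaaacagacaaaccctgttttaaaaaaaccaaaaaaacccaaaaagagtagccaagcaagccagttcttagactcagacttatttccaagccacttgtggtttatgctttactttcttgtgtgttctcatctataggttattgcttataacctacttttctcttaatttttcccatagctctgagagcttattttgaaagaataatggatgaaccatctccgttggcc
Abca1 (chr4:53159846-53160145, minus strand): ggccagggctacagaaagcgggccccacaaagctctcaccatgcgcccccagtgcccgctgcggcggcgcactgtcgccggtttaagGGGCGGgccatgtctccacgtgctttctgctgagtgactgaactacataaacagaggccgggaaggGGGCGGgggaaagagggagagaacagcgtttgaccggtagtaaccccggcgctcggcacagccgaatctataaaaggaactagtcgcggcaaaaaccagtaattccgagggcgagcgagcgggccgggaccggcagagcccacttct
Hmgcs1 (chr13:119690101-119690400, plus strand): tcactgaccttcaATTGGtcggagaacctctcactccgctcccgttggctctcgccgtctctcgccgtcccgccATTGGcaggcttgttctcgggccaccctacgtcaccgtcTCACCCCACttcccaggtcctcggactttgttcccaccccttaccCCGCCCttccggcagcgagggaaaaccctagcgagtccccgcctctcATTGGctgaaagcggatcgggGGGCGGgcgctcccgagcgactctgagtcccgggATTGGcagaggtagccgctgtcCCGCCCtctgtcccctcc

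The *Scap* window held 1 GGGCGG, and a second RefSeq start of this gene lies 68 bases downstream. The *Acaca* window belongs to a RefSeq start that lies 65766 bases downstream of the first base of the gene in GENCODE, and none of the 3 motifs was found in it. Whether this window acts as a promoter was not tested. Its lack of motifs does not describe the sequence at the first base of *Acaca*, which was not searched. The *Abca1* window held GGGCGG at 163 and 97 bases before the start, and the *Hmgcs1* window held TCACCCCAC 137 bases before the start together with 4 CCAAT and 3 GGGCGG. Windows of 27 of the 34 members were matched by symbol, *Acaca* with this downstream window among them. Those of *Fdps*, *Fdft1*, *Sqle*, *Stard4*, *Abcg1*, *Scd1* and *Scd2* were not matched. Among the matched members, TCACNCCAC was present in 1 of 27 (3.70%), against 1.44% of the 27025 genes with a window. CCAAT was present in 21 of 27 (77.8%), against 41.1% of all these genes, and GGGCGG in 21 of 27 (77.8%), against 38.2%. A match describes the letters in a window and not a bound site, and the members were not tested against other genes.

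Before the genotypes were compared, the targeted gene and the make-up of the libraries were examined. *Atp6ap2* itself gave 7490, 5815 and 5681 normalized counts in the controls (here and elsewhere in the order of replicates 1, 2 and 3). The *Atp6ap2* iECKO libraries gave 4220, 2336 and 1982, a log2 fold change of -1.22 ± 0.26 (SE; limma, adjusted *P* = 0.0306). The genotypes did not overlap, and *Atp6ap2* iECKO replicate 1 retained the most transcript. Without that library the adjusted *P* of *Atp6ap2* was 0.00604, and without any one of the others it lay between 0.0628 and 0.103. All 6 libraries were labelled as male (fl/Y), whereas the study's methods speak of neonates of both sexes and its groups include fl/fl females. In these libraries *Xist*, the RNA that coats the inactive X in female cells, had between 37704 and 47487 normalized counts in control replicates 1 and 2 and *Atp6ap2* iECKO replicates 1 and 3, and 31.7 and 19.3 in the remaining control and *Atp6ap2* iECKO library. The labels were kept, and called members are also given for the 4 libraries with *Xist*. The most common nonzero value of each library placed relative depth at 1.00 to 1.04 in controls against 1.25 to 1.55 in *Atp6ap2* iECKO libraries, but the read totals are not known.

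The 20 endothelial markers summed to 433171 to 553403 normalized counts in controls against 425593 to 502864 in *Atp6ap2* iECKO libraries, and 0 of them were called higher and 1 lower. Markers of other cells did move with genotype: of 13 tested fibroblast markers 9 were lower (median log2 fold change -1.51; sums 89744 to 137644 against 31993 to 45515), of 15 mural and smooth muscle markers 9 were lower (median -1.51; 17755 to 26888 against 7226 to 9258), and of 8 lipofibroblast markers 3 were lower (median -0.95; 7629 to 8185 against 4124 to 7524), all 3 of them also among the fibroblast markers. The fibroblast list was not uniform, as 2 of its 13 tested markers had log2 fold changes above 0 (up to 1.12), though 0 were called higher. Of 15 genes of dividing cells, 12 were higher (median 1.04; 24605 to 44109 against 55839 to 64917). None of 15 alveolar type 2, 14 macrophage, 12 other leukocyte and 6 erythroid markers tested passed, and 1 of 10 alveolar type 1 and airway markers was higher; the erythroid sums were 11314 to 47967 against 10656 to 22291, and *Gzma*, *Ly6g* and *Hbb-bs* were at or near 0 in every library. Control replicate 3 stood apart in its alveolar type 2 sum, 73976 against 29612 to 43077 in the other libraries. In bulk RNA of this kind, fewer cells of a type and less RNA per cell cannot be told apart, and the part of these markers in the values of the sterol and fatty acid genes was not tested.

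Of the 34 members, 3 passed an adjusted *P* of 0.05 in limma, or 8.82%, against 8.25% of all genes tested. *Scap* and *Acaca* were higher (2 of 34, against 3.28% of all genes in that direction) and *Abca1* was lower (1 of 34, against 4.97%), and the other 31 members did not pass. An unadjusted *P* below 0.05 was reached by 10 of 34 (29.4%), against 23.9% of all genes, and the values of the genotypes did not overlap in 11 of 34 (32.4%), against 29.8%. The median log2 fold change of the members was 0.08, and 20 of 34 (58.8%) lay above 0, against a median of 0.00 and 50.7% over all genes. The median absolute log2 fold change was 0.17 for the members and 0.21 for all genes. The shares of members called and not overlapping were thus near those of all genes. In the 4 libraries with *Xist*, limma called 0 of all genes, with 2196 genes and 7 members at an unadjusted *P* below 0.05.

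**Figure D1:**
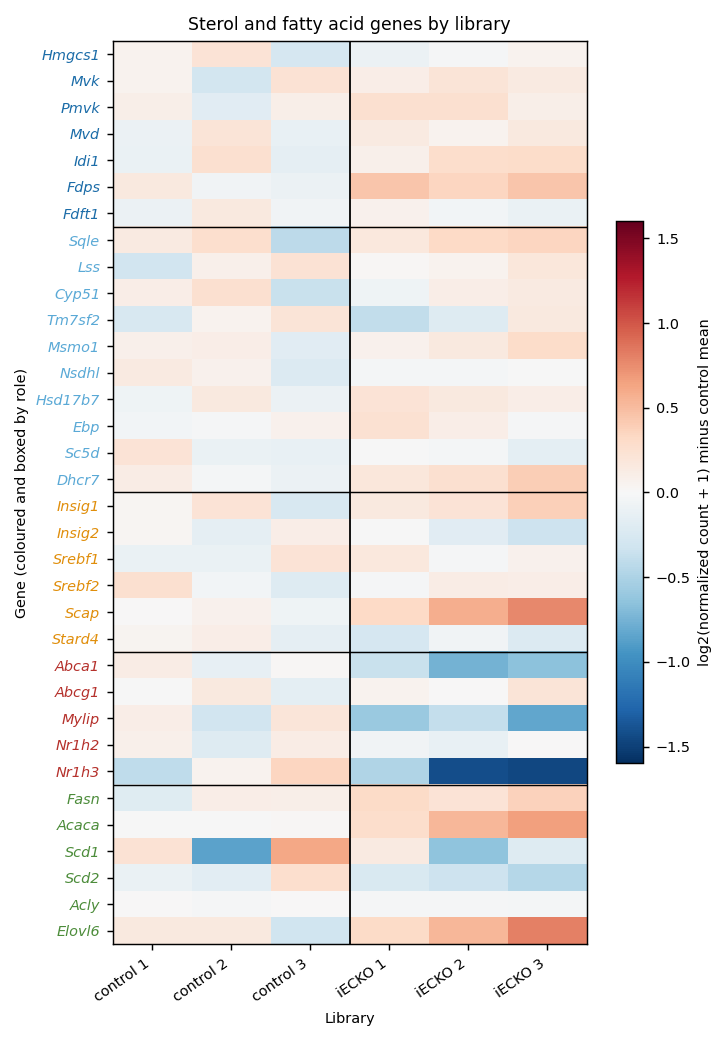
Each row is 1 of the 34 genes and each column 1 library (3 control, 3 *Atp6ap2* iECKO). Colour gives log2(normalized count + 1) minus the mean of the 3 controls, and lines box the genes by role. Most enzyme rows are pale in both genotypes, *Scap*, *Acaca*, *Fdps* and *Elovl6* are red in the *Atp6ap2* iECKO columns, and *Abca1*, *Mylip* and *Nr1h3* are blue there.

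**Figure D2:**
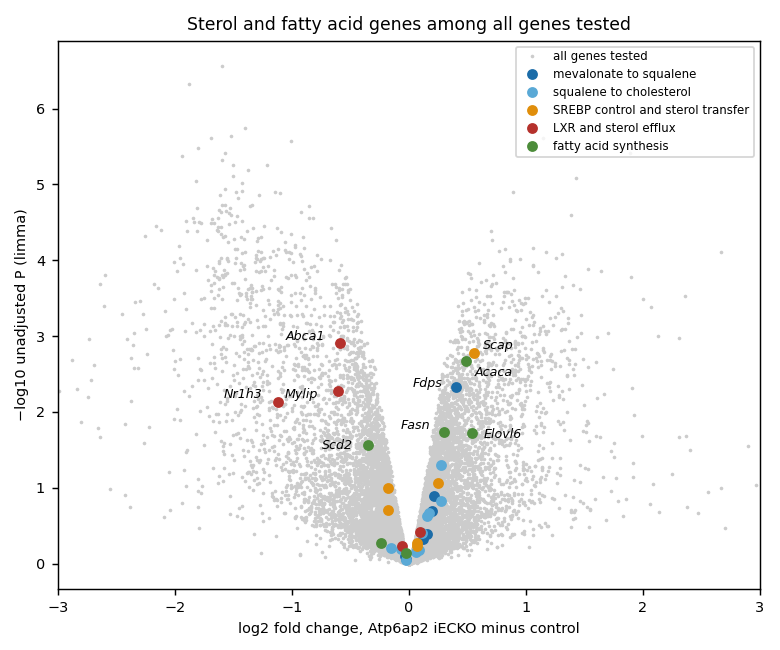
Log2 fold change (*Atp6ap2* iECKO minus control, x axis) against −log10 of the unadjusted limma *P* (y axis) for 14456 genes in grey, with the 34 members coloured by role; 19 grey genes lie outside the x axis limits. Most members lie near the centre at the foot of the cloud, with *Scap*, *Acaca* and *Abca1* the highest of them.

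None of the 7 enzymes of the mevalonate part of the pathway passed the test (log2 fold changes from -0.03 to 0.41, median 0.15). *Hmgcs1*, the synthase that condenses acetyl-CoA with acetoacetyl-CoA, lies at chr13:119690379-119708260 (GRCm38). It had 4382, 4892 and 3497 normalized counts in the controls and 3959, 4158 and 4371 in the *Atp6ap2* iECKO libraries. All 3 *Atp6ap2* iECKO values fell inside the range of the controls, and the log2 fold change was -0.02 ± 0.12 (SE), with a 95% interval from -0.31 to 0.27.

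*Fdps*, which makes farnesyl diphosphate, the branch point towards sterols and protein prenylation, was the only mevalonate gene whose genotypes did not overlap. Its values were 711, 613 and 598 in the controls and 866, 813 and 866 in the *Atp6ap2* iECKO libraries. Each *Atp6ap2* iECKO library lay above each control, with means of 640.7 ± 61.4 and 848.3 ± 30.6 (SD, n = 3). The log2 fold change was 0.41 ± 0.11 (SE) and the adjusted *P* in limma 0.0540, just outside the threshold. It passed in 2 of 11 other settings (adjusted *P* from 0.0387 to 0.0954) and in 1 of 6 fits without a library, that without control replicate 1 (0.0377 to 0.185), and was 0.290 in the 4 libraries with *Xist*. Of the 50-base words in *Fdps* exons, 26.2% also occur in other annotated genes, among them *Gm43738* and *Gm3571*, so its reads may have been divided between them.

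The kinases and decarboxylase that follow mevalonate were measured at lower counts. *Mvk* (mevalonate kinase) averaged 222.8 ± 39.7 in controls and 245.2 ± 8.57 in *Atp6ap2* iECKO libraries (SD, n = 3), and *Pmvk* (phosphomevalonate kinase) 283.8 ± 30.4 and 325.1 ± 21.2. *Mvd*, the decarboxylase that yields isopentenyl diphosphate, averaged 209.6 ± 27.3 and 226.6 ± 8.70. The ranges of the genotypes overlapped for *Mvk* and *Mvd*, and for *Pmvk* the lowest *Atp6ap2* iECKO value (300.6) lay between control values of 300.5 and 302.1. The isomerase gene *Idi1* gave 1142, 1476 and 1112 normalized counts in controls against 1302, 1499 and 1509 (log2 fold change 0.22 ± 0.13), with one control inside the *Atp6ap2* iECKO range; 17.7% of its 50-base words are shared with other genes. *Fdft1*, squalene synthase, averaged 738.8 ± 69.5 against 723.3 ± 42.3.

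In the later steps, from squalene to cholesterol, none of the 10 enzymes passed, and log2 fold changes ran from -0.15 to 0.28 with a median of 0.10. *Sqle*, squalene epoxidase, a rate-limiting step after mevalonate, had 846, 927 and 575 normalized counts in the controls and 862, 959 and 977 in the *Atp6ap2* iECKO libraries. Here control replicate 3 was far lower than the other 5 libraries, which overlapped, and the log2 fold change was 0.28 ± 0.18 (SE; limma, adjusted *P* = 0.388). It was 0.07 without control replicate 3 and 0.05 in the 4 libraries with *Xist*. The same library was lowest for *Cyp51*, the lanosterol demethylase, which had 1645, 1824 and 1190 normalized counts in controls against 1459, 1640 and 1694 (log2 fold change 0.06 ± 0.16).

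*Dhcr7*, which performs a last reduction to cholesterol, was the only enzyme of these 10 whose genotypes did not overlap. It had 467, 420 and 402 normalized counts in the controls and 486, 513 and 565 in the *Atp6ap2* iECKO libraries. The gap between the nearest libraries of the genotypes was small, and the log2 fold change was 0.28 ± 0.12 (SE; limma, adjusted *P* = 0.209). *Msmo1*, a sterol C4-methyl oxidase, averaged 446.9 ± 46.8 against 503.3 ± 39.4, and *Hsd17b7*, the 3-ketosteroid reductase, 389.7 ± 38.7 against 434.1 ± 17.5 (SD, n = 3).

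The other enzymes of these steps had log2 fold changes within 0.15 of 0. *Lss*, which cyclises squalene epoxide to lanosterol, averaged 192.5 ± 35.2 and 202.1 ± 11.5, and *Ebp*, the sterol isomerase on the X chromosome, 396.2 ± 15.3 and 429.0 ± 39.2 (SD, n = 3). *Nsdhl*, the other X-linked member, gave 265.4 ± 34.2 and 260.0 ± 2.51, and *Sc5d*, the desaturase that precedes *Dhcr7*, 479.2 ± 67.0 and 456.3 ± 25.0. *Tm7sf2*, the sterol C14 reductase, had the lowest counts of all members, 56.8 ± 9.25 and 51.4 ± 10.6, and 9.87% of its 50-base words are also in the overlapping gene *Vps51*. None of these genes separated the genotypes.

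Over all 17 sterol synthesis enzymes, 0 were called by limma, against 8.25% of all genes. An unadjusted *P* below 0.05 was reached by 2 (*Fdps* and *Dhcr7*, 11.8%), against 23.9% of all genes. The same 2 were the only ones without overlap of the genotypes (11.8%, against 29.8%). Of the log2 fold changes, 12 (70.6%) lay above 0 and 5 below, against 50.7% of all genes above 0. The median log2 ratio of the 17 enzymes to the control mean was 0.06, 0.08 and -0.10 in control replicates 1, 2 and 3, and 0.08, 0.11 and 0.15 in *Atp6ap2* iECKO replicates 1, 2 and 3. Control replicate 3 lay below the other 5 libraries and was lowest for 10 of the 17 enzymes. Standard errors ranged from 0.11 to 0.28 on the log2 scale, and the 95% interval stayed within 2-fold in either direction for all 17 and within 1.41-fold for 9.

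**Figure D3:**
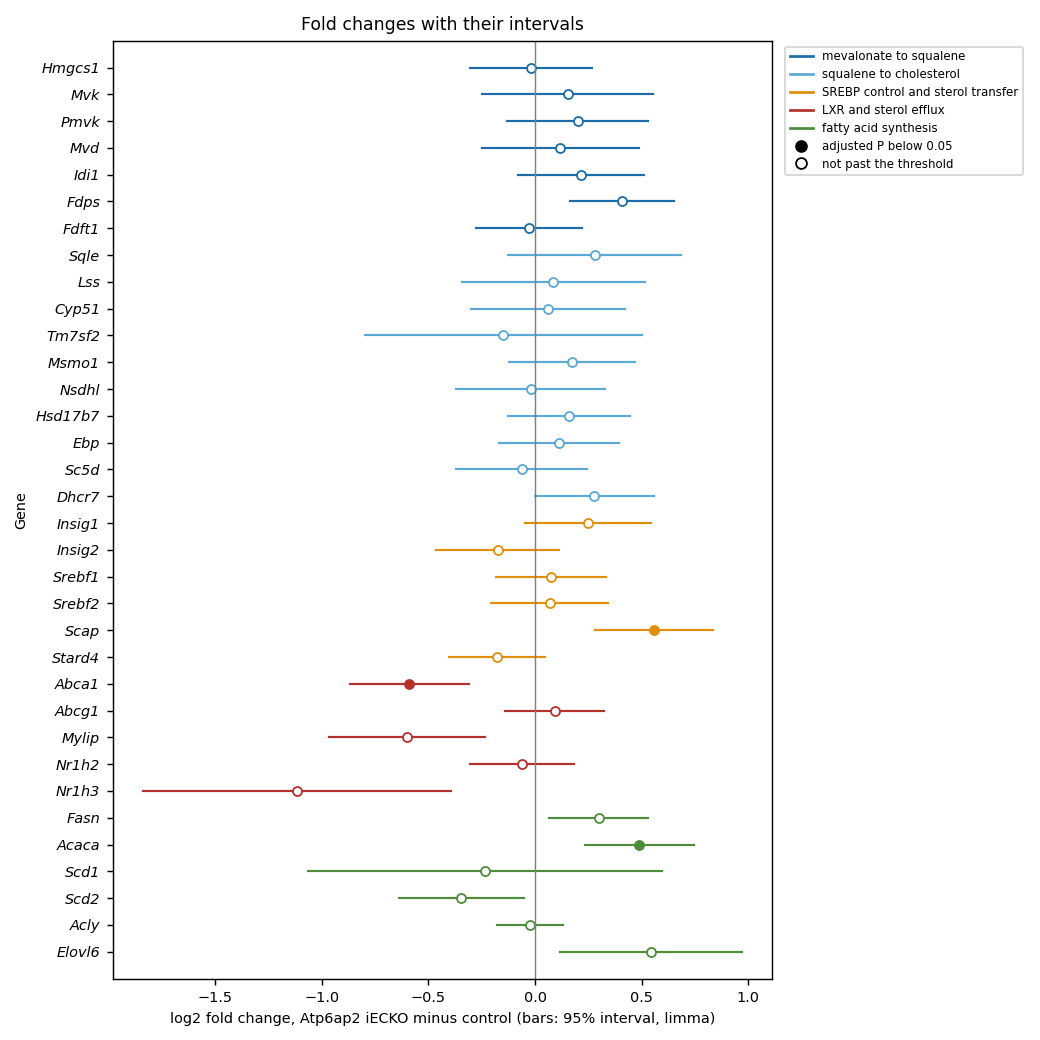
Points give the log2 fold change (*Atp6ap2* iECKO minus control, x axis) of each of the 34 genes (y axis) and bars its 95% limma interval, coloured by role; filled points passed an adjusted *P* of 0.05. *Scap* (0.56), *Acaca* (0.49) and *Abca1* (-0.59) are filled, and the interval of *Nr1h3* is among the widest, from -1.84 to -0.40.

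Among the genes that sense sterol, *Scap* rose. *Scap* encodes the escort protein that carries SREBPs to the Golgi and spans chr9:110333288-110384950. It had 1452, 1519 and 1375 normalized counts in the controls and 1807, 2171 and 2473 in the *Atp6ap2* iECKO libraries. Every *Atp6ap2* iECKO value was above every control, and the mean was 48.4% higher (1448.7 ± 72.4 against 2150.5 ± 333.5; SD, n = 3). The log2 fold change was 0.56 ± 0.12 (SE; limma, adjusted *P* = 0.0320), with a 95% interval from 0.28 to 0.84. The adjusted *P* of *Scap* was 0.0644, 0.0588 and 0.104 without control replicates 1, 2 and 3, and 0.0155, 0.109 and 0.107 without *Atp6ap2* iECKO replicates 1, 2 and 3, with log2 fold changes from 0.45 to 0.68. In the 4 libraries with *Xist*, *Scap* differed by 0.51 (adjusted *P* = 0.255), and with all libraries the adjusted *P* was 0.0529 with *Xist* as a covariate and 0.0902 without the mean-variance trend.

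The factors that SCAP carries did not pass. *Srebf1*, which encodes the SREBP isoforms that chiefly serve fatty acid synthesis, averaged 1418 ± 188 in controls and 1486 ± 94.3 in *Atp6ap2* iECKO libraries (SD, n = 3). *Srebf2*, which encodes the isoform that chiefly serves sterol synthesis, had 4757, 3855 and 3463 normalized counts in controls against 3946, 4326 and 4286. Both had a log2 fold change of 0.07, with *Atp6ap2* iECKO values inside the control range in every library.

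The INSIG genes differed in sign but neither passed. *Insig1*, an SREBP target whose product retains SCAP, had 2151, 2463 and 1773 normalized counts in controls and 2343, 2453 and 2744 in *Atp6ap2* iECKO libraries, with a log2 fold change of 0.25 ± 0.13 (SE; limma, adjusted *P* = 0.286), which was 0.12 without control replicate 3. *Insig2*, its paralog, had 703, 621 and 743 against 682, 607 and 545, a log2 fold change of -0.17 ± 0.12 (limma, adjusted *P* = 0.449). The ranges of the genotypes overlapped for both. *Stard4*, which moves sterol between membranes, averaged 5924 ± 528 and 5225 ± 419 (log2 fold change -0.18 ± 0.10) and overlapped as well.

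Of the 5 genes of the LXR system, 1 passed (20.0%, against 8.25% of all genes). Their median log2 fold change was -0.59, against 0.00 over all genes. For 12 further genes, the LXR partners, targets and oxysterol enzymes of the wider pathway, the median was -0.03. The genotypes did not overlap in 3 of the 5 (60.0%, against 29.8% of all genes). *Abca1* encodes the transporter that loads cholesterol onto apolipoprotein A-I and spans chr4:53030787-53159895. It had 7026, 5910 and 6552 normalized counts in the controls and 5081, 3828 and 4109 in the *Atp6ap2* iECKO libraries. Each control lay above each *Atp6ap2* iECKO library, and the mean was 6496 ± 560 against 4339 ± 658 (SD, n = 3), a change of -33.2%. *Abca1* thus fell by 0.59 ± 0.12 on the log2 scale (SE; limma, adjusted *P* = 0.0281), with a 95% interval from -0.87 to -0.31. Its adjusted *P* was 0.0635, 0.0392 and 0.0908 without control replicates 1, 2 and 3, and 0.0151, 0.101 and 0.107 without *Atp6ap2* iECKO replicates 1, 2 and 3, with log2 fold changes from -0.71 to -0.50. In the 4 libraries with *Xist*, *Abca1* differed by -0.50 (adjusted *P* = 0.232), and without the mean-variance trend the adjusted *P* was 0.0855.

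*Mylip* and *Nr1h3* separated the genotypes without passing the threshold. *Mylip*, the LXR-induced ubiquitin ligase also called IDOL, had 3566, 2676 and 3780 normalized counts in controls and 2197, 2538 and 1852 in *Atp6ap2* iECKO libraries. Its log2 fold change was -0.60 ± 0.16 (SE; limma, adjusted *P* = 0.0573), and control replicate 2 lay close to *Atp6ap2* iECKO replicate 2. *Mylip* passed in 1 of 11 other settings, with *Xist* as a covariate (adjusted *P* from 0.0441 to 0.135), and in 1 of 6 fits without a library, that without control replicate 2 (0.0290 to 0.183).

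*Nr1h3*, which encodes LXRα, had 202, 278 and 342 normalized counts in controls and 192, 99.6 and 96.9 in *Atp6ap2* iECKO libraries. Here *Atp6ap2* iECKO replicate 1 lay just under control replicate 1, and the other two were far lower. The log2 fold change of -1.12 ± 0.31 (SE; limma, adjusted *P* = 0.0687) was the largest in size of the 34 members and also had one of the largest errors. *Nr1h3* passed in 0 of 11 other settings (adjusted *P* from 0.0609 to 0.126) and in 1 of 6 fits without a library, that without *Atp6ap2* iECKO replicate 1 (0.0252 to 0.215).

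The remaining LXR genes overlapped between genotypes. *Abcg1*, which exports sterol to high-density lipoprotein, averaged 2917 ± 304 in controls and 3103 ± 224 in *Atp6ap2* iECKO libraries (SD, n = 3), a log2 fold change of 0.09 ± 0.10 with a 95% interval from -0.14 to 0.32. *Nr1h2*, which encodes LXRβ, averaged 2011 ± 245 and 1920 ± 85.2 (log2 fold change -0.06 ± 0.11). *Abca1*, *Mylip* and *Nr1h3* and the summed fibroblast and mural markers were lower in the *Atp6ap2* iECKO libraries, and a link between them was not tested. Among controls, replicate 1 had the lowest fibroblast and mural sums (89744 and 17755) and the highest *Abca1* (7026). *Nr1h3* was lowest there (202), and *Mylip* (3566) lay between the other controls. Control replicate 2 had the highest sums (137644 and 26888) and the lowest *Abca1* (5910) and *Mylip* (2676), with *Nr1h3* (278) between the other controls. Among *Atp6ap2* iECKO libraries, replicate 1 had the highest sums (45515 and 9258), *Abca1* (5081) and *Nr1h3* (192), and a middle *Mylip* (2197). *Atp6ap2* iECKO replicate 3 had the lowest sums (31993 and 7226), *Mylip* (1852) and *Nr1h3* (96.9), and a middle *Abca1* (4109). *Abca1* and *Abcg1*, both taken as LXR targets, gave 95% intervals that did not overlap each other, and the difference between these genes was not tested.

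**Figure D4:**
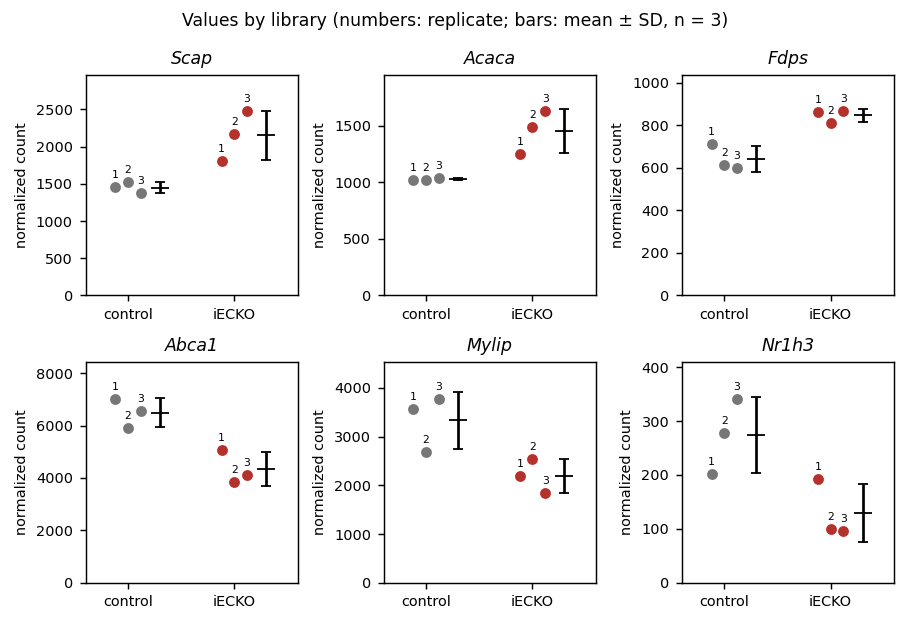
Normalized counts (y axes, from 0) of 6 genes in the 3 control and 3 *Atp6ap2* iECKO libraries; points are libraries with their replicate number, and bars show the mean and SD. In each of the 6 panels the genotypes do not overlap; *Scap*, *Acaca* and *Fdps* are higher and *Abca1*, *Mylip* and *Nr1h3* lower in *Atp6ap2* iECKO libraries.

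Of the 6 fatty acid genes 1 passed (16.7%, against 8.25% of all genes). The genotypes did not overlap in 5 (3 higher, 2 lower), or 83.3%, against 29.8% of all genes. Among these 5 was *Acly*, whose difference was near 0. *Acaca*, which encodes acetyl-CoA carboxylase 1, the committed step of fatty acid synthesis, spans chr11:84129672-84401651. It had 1024, 1024 and 1038 normalized counts in the controls and 1247, 1486 and 1628 in the *Atp6ap2* iECKO libraries. The controls lay within a few counts of each other and below every *Atp6ap2* iECKO library, and the mean was 41.3% higher (1028.7 ± 8.43 against 1453.5 ± 192.6; SD, n = 3). *Acaca* rose by a log2 fold change of 0.49 ± 0.11 (SE; limma, adjusted *P* = 0.0361), with a 95% interval from 0.24 to 0.74. Its adjusted *P* was 0.0710, 0.0827 and 0.101 without control replicates 1, 2 and 3, and 0.0187, 0.128 and 0.131 without *Atp6ap2* iECKO replicates 1, 2 and 3, with log2 fold changes from 0.40 to 0.60. In the 4 libraries with *Xist*, *Acaca* differed by 0.48 (adjusted *P* = 0.259), and with all libraries the adjusted *P* was 0.0612 with *Xist* as a covariate and 0.0915 without the mean-variance trend. In its exons 30.4% of 50-base words also occur in other annotated genes such as *Gm5182*.

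*Fasn*, the fatty acid synthase that acts on the product of ACACA, had 3483, 4314 and 4253 normalized counts in controls and 4963, 4656 and 5144 in *Atp6ap2* iECKO libraries. The genotypes did not overlap, but the difference did not pass (log2 fold change 0.30 ± 0.10, SE; limma, adjusted *P* = 0.120). *Elovl6*, which lengthens palmitate, had 396, 396 and 283 against 437, 511 and 617, also without overlap (log2 fold change 0.54 ± 0.19; limma, adjusted *P* = 0.122).

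*Acly*, which supplies cytosolic acetyl-CoA from citrate, was the steadiest member. Its controls had 6011, 5902 and 5979 normalized counts and its *Atp6ap2* iECKO libraries 5862, 5865 and 5855, so that the genotypes did not overlap while the log2 fold change was only -0.03 ± 0.07 (95% interval -0.18 to 0.13). The sign of this difference turned under scaling to library totals (0.015) and under quantile normalization (0.0096).

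The stearoyl-CoA desaturases, which insert the first double bond, had lower means in *Atp6ap2* iECKO libraries. *Scd2* had 9582, 9151 and 12441 normalized counts in controls and 8708, 8155 and 7499 in *Atp6ap2* iECKO libraries, without overlap (log2 fold change -0.34 ± 0.13, SE; limma, adjusted *P* = 0.148). Without control replicate 3 the log2 fold change of *Scd2* was -0.21. *Scd1*, at 2777, 1303 and 3636 against 2616, 1507 and 2045, varied more within a genotype than between genotypes, with a 95% interval from -1.07 to 0.59. Of their 50-base words, 3.97% for *Scd2* and 4.56% for *Scd1* are shared with the other *Scd* genes and some further genes.

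Beside the counts per gene, levels were compared per kilobase of exon in the controls. *Scd2* stood highest at 1902 normalized counts per kb, followed by *Acly* (1130), *Stard4* (1061), *Mylip* (1033) and *Hmgcs1* (927). *Lss* (17.8) and *Tm7sf2* (12.9) stood lowest, after *Acaca* (60.2) and *Elovl6* (55.7). Neighbours in this order, such as *Acly*, *Stard4* and *Mylip*, differed by less than the spread between control libraries of *Mylip*, and lengths that count every annotated exon understate the level of genes with many unused exons.

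Libraries of one genotype did not behave alike. Control replicate 3 was the lowest library for 15 of the 34 members and the highest for 10. By group, the median log2 ratio of the 5 LXR genes to the control mean was 0.09, -0.13 and 0.12 in controls and -0.35, -0.38 and -0.66 in *Atp6ap2* iECKO libraries, and that of the 6 fatty acid genes 0.00, -0.01 and 0.05 against 0.21, 0.10 and 0.17.

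**Figure D5:**
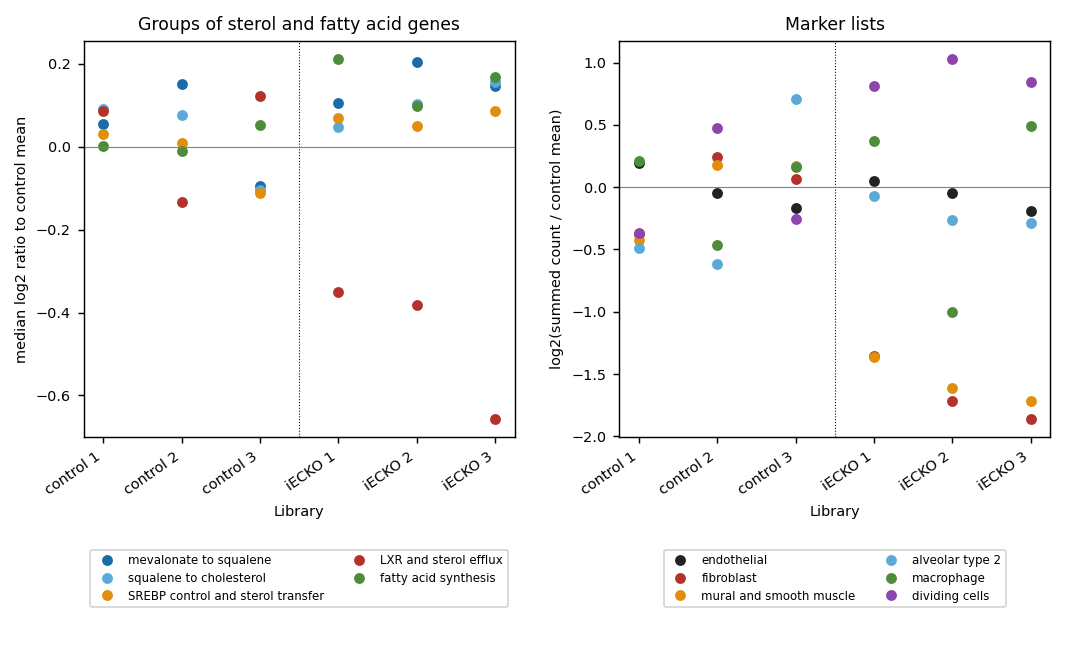
Left, the median log2 ratio to the control mean of each group of sterol and fatty acid genes in each library; right, log2 of the summed count of 6 marker lists over its control mean. The LXR group lies at -0.35 or lower in the *Atp6ap2* iECKO libraries while the other groups lie above 0; fibroblast and mural sums are lower and sums of dividing-cell genes higher in these libraries.

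The wider pathway was described with 82 further genes, of which 78 were tested, and *Soat2*, *Elovl3*, *Thrsp* and *Mlxipl* were too low. Of the 78, 2 were higher and 6 lower (10.3% called, against 8.25% of all genes), 33 (42.3%, against 29.8%) did not overlap between genotypes and the median log2 fold change was -0.04. None of the 12 genes of isoprenoid branches and sterol accessory proteins, the 9 of SREBP processing and the 12 of LXR partners and oxysterol enzymes passed in limma. An unadjusted *P* below 0.05 was reached by 3, 2 and 1 of them (25.0%, 22.2% and 8.33%), against 23.9% of all genes. Of the 17 genes of sterol uptake, traffic and esterification, 1 was higher and 5 were lower, and of the 28 of fatty acid supply and use, 1 was higher and 1 lower, where 3.28% of all genes were higher and 4.97% lower.

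The wider gene with the steadiest call was *Hsd17b12*, the ketoacyl reductase of long-chain fatty acid elongation, at 1229 ± 94.3 in controls and 2002 ± 69.7 in *Atp6ap2* iECKO libraries (SD, n = 3). *Hsd17b12* rose by a log2 fold change of 0.71 ± 0.09 (SE; limma, adjusted *P* = 0.00848) and passed without any one library. The lipoprotein receptor gene *Lrp8* rose from 25.6 ± 7.99 to 83.3 ± 13.3 (log2 fold change 1.71 ± 0.33; limma, adjusted *P* = 0.0244), whereas its relative *Vldlr* fell from 998.7 ± 110 to 733.5 ± 8.88 (log2 fold change -0.44; limma, adjusted *P* = 0.0461). Both receptors bind reelin.

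*Lipa*, the acid lipase that frees cholesterol from lipoprotein esters, averaged 2357 ± 69.7 in controls and 1724 ± 222 in *Atp6ap2* iECKO libraries (log2 fold change -0.46; limma, adjusted *P* = 0.0383). *Npc1*, which exports that cholesterol from the lysosome, averaged 2398 ± 104 and 1892 ± 73.5 (-0.34; adjusted *P* = 0.0361), and *Gramd1b*, which moves it from the plasma membrane to the endoplasmic reticulum, 1518 ± 86.4 and 1095 ± 93.5 (-0.47; adjusted *P* = 0.0274). Each of these 3 genes had all *Atp6ap2* iECKO libraries below all controls. *Lrp1*, a broad uptake receptor, fell from 8579 ± 1612 to 4230 ± 1143 (log2 fold change -1.04), and *Dgat2*, which makes triglyceride, from 162.4 ± 19.5 to 79.2 ± 12.3 (-1.03; limma, adjusted *P* = 0.0287 for each). Without single libraries, the adjusted *P* of *Npc1* lay between 0.0584 and 0.148 and that of *Gramd1b* between 0.0561 and 0.108, so neither passed; *Lipa*, *Vldlr* and *Dgat2* each passed in 1 of 6 such fits, *Lrp1* in 2 and *Lrp8* in 3.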

How the data were processed

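RNA-Seq libraries (TruSeq) of 3 control and 3 *Atp6ap2* iECKO samples were read as deposited. Reads had been aligned to mm10, and genes quantified, by the authors with BaseSpace applications. The values the authors deposited are a normalized signal (normalized counts); the labels call them raw counts, but they are not whole numbers, so read depth is unknown and no count model was used. Normalized totals ran from 26243900 to 28725800 per library.

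Values were analysed as log2(normalized count + 1), so that changes of low genes are understated. The 14456 genes that reached 10 in 3 or more libraries were compared between genotypes with limma 3.58.1 (R 4.3.3), using a mean-variance trend and no covariate. Adjustment was by Benjamini-Hochberg over these genes, with a threshold of 0.05, and the procedure was tested on simulated data. The simulated noise was independent between genes and libraries, so it held no differences in cell make-up or *Xist* like those seen here. Nothing in the labels says that libraries came from separate animals, and the study's text calls them biological replicates. The members, lists and markers were chosen with earlier results of these data known. All 34 members are named, with each wider pathway gene past the threshold; marker lists are given by count and sum. Coordinates and exon lengths are from GENCODE (GRCm38), and 50-base words shared between genes were counted in its transcripts. Alternatives were other scalings, filters, pseudocounts, variance settings, a replicate block, *Xist* as a covariate and leaving out each library; the libraries with *Xist* alone were added after seeing the data.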

Additional observations from a re-analysis of the deposited data

How the results depend on the processing

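Of 612 values of the 34 members under 18 alternatives each, 561 kept their direction and side of the threshold, 22 lost and 6 gained a call, and 23 in 10 members turned sign. With no mean-variance trend 0 members were higher and 0 lower, 2 wider pathway genes lower, 69 of all genes higher and 235 lower, and *Atp6ap2* (-1.22) lost its call. With *Xist* as a covariate 0 members were higher and 2 lower, 3 pathway genes lower and 248 of all genes higher. In the 4 libraries with *Xist*, chosen after seeing the data, limma called 0 genes in either direction (2196 genes and 7 members at an unadjusted *P* below 0.05), *Atp6ap2* gave -1.19, the fatty acid median was 0.33, and signs turned for *Cyp51* (-0.14), *Srebf2* (-0.059), *Nr1h2* (0.033) and *Scd1* (0.28). Library total scaling left 3 pathway genes lower and turned *Hmgcs1* (0.021), *Fdft1* (0.012), *Nsdhl* (0.019) and *Acly* (0.015); quantile normalization turned *Hmgcs1* (0.015) and *Acly* (0.0096). Pathway genes called higher numbered 4 with a mean of at least 50 and 4 with robust variance. At an adjusted *P* of 0.1, 3 members were lower, pathway calls were 8 higher and 10 lower, and all calls 908 higher and 1079 lower. The labels share replicate numbers only; same-numbered libraries deviated together by correlations of 0.25, 0.11 and 0.08, and control 3 correlated more with *Atp6ap2* iECKO 2 (0.10). With the replicate block, 670 genes were higher and 838 lower, 5 pathway genes higher, and members again 2 higher and 1 lower. Leaving out each library in turn gave 0 to 2 members higher, 0 to 2 lower, 1 to 4 pathway genes higher and 0 to 4 lower. Of all genes, 28 to 460 were higher and 178 to 658 lower. *Atp6ap2* ran from -1.54 to -0.999 and the fatty acid median from 0.090 to 0.21. Log2 fold changes ran from -0.15 to 0.088 for *Hmgcs1*, -0.073 to 0.048 for *Fdft1*, -0.068 to 0.20 for *Lss*, -0.12 to 0.19 for *Cyp51* and -0.13 to 0.051 for *Nsdhl*. They ran from -0.12 to 0.049 for *Sc5d*, -0.034 to 0.19 for *Srebf2*, -0.17 to 0.0011 for *Nr1h2* and -0.66 to 0.076 for *Scd1*. Values also moved by over 1.5 times for *Idi1* (0.14 to 0.35), *Insig2* (-0.26 to -0.095), *Msmo1* (0.084 to 0.22), *Mvk* (0.0083 to 0.27), *Pmvk* (lowest 0.11) and *Hsd17b7* (highest 0.24). The same held for *Abcg1* (0.017 to 0.17), *Tm7sf2* (-0.30 to -0.023), *Sqle* (0.072 to 0.42), *Srebf1* (0.020 to 0.18), *Ebp* (0.044 to 0.18), *Insig1* (0.12 to 0.36), *Mvd* (0.062 to 0.22) and *Scd2* (-0.43 to -0.21). None of these genes was called, and the arm with fewer libraries was assumed to vary like the other. The causes of these changes were not tested, and 3 libraries a group limit the precision.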
